A study of Homo sapiens with 12 samples.

Results

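The cholesterol synthesis and uptake genes comprised 33 human genes of the mevalonate pathway, of sterol synthesis, and of sterol uptake, storage and transport, chosen by gene symbol. Of these, 29 were among the 8842 genes listed for every library, 17 of them enzymes of synthesis and 12 proteins of control, transport or storage. FDPS, GGPS1, SC5D and NR1H3 were not listed. To find genes that act downstream of the long noncoding RNA FASRL, RNA was sequenced from HepG2 and LM3. These are 2 established human lines, which the paper calls hepatocellular carcinoma lines. Cells of each line received either siFASRL, an siRNA against FASRL, or siNC, a negative control siRNA, and RNA was harvested 48 h after transfection. Each of the 4 groups (HepG2 siNC, HepG2 siFASRL, LM3 siNC and LM3 siFASRL) had 3 replicates, giving 12 libraries. mRNA was taken from Trizol total RNA with oligo(dT) beads and sequenced on a BGISEQ-500. FASRL was not listed, so its knockdown could not be checked from the values used here.

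The values are the authors' normalized RSEM expression values, for which neither the column headings nor the paper's text states FPKM or TPM. Reads were not given as counts, and the depth behind a value is unknown. Summed over the listed genes, a library held 333193 to 338379 in HepG2 siNC, 347211 to 355094 in HepG2 siFASRL, 316534 to 321859 in LM3 siNC and 346884 to 348573 in LM3 siFASRL. The paper describes its cell line experiments as repeated, with representative data shown. No source states that the replicates sequenced here came from separate cultures, so the p-values measure only the spread between these libraries, which may be technical. How the listed genes were selected is not stated. Where the mean reached 5 or more, HepG2 effects between -0.22 and -0.02 on the log2 scale held 15 of 6367 genes (0.236%), against 726 of 5937 (12.2%) for LM3 effects in that interval. Shares over all tested genes therefore refer to the listed genes only. The cholesterol genes counted here passed the same unstated selection. Their counts, above all in HepG2, therefore also hold for listed genes only and may depend on it.

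Cholesterol is built from acetyl-CoA through mevalonate, isoprenoid units, squalene and lanosterol, and lanosterol is then trimmed and reduced in the endoplasmic reticulum. SREBP transcription factors switch on most genes of the pathway when sterol in that membrane is low, and INSIG proteins hold SREBP back when sterol is plentiful. Liver cells also take up lipoprotein cholesterol, free it in lysosomes, store it as esters and pass it out through ABC transporters.

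After siFASRL, most of the cholesterol genes fell in both lines. Differences were tested with limma on log2(value + 1), with Benjamini-Hochberg adjustment over all tested genes, and a gene was called at an adjusted p under 0.05. In HepG2, 29 of the genes could be tested and 26 fell, against 44.3% of all 8144 tested genes, while 2 rose, against 44.8%. In LM3, 28 could be tested and 26 fell, against 43.5% of all 7483 tested genes, while 1 rose, against 33.9%. SOAT2 was at or near 0 in every LM3 library and was not tested there. The genes that rose were PMVK in both lines and NPC1 in HepG2. CYP51A1 in HepG2 and NPC1 in LM3 did not pass the test. The median log2 fold change (siFASRL minus siNC) of the cholesterol genes was -0.79 in HepG2, where that of all tested genes was 0.10, and -1.10 in LM3, where it was -0.06. Whether fewer cells expressed a gene or each cell held less of its RNA cannot be told apart in these bulk libraries.

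With a change of at least 1 log2 unit required as well, 9 of the cholesterol genes were lower in HepG2, against 6.79% of all tested genes, and 17 in LM3, against 6.20%. No cholesterol gene reached a log2 fold change of 1 upward, the largest being 0.71 for NPC1 in HepG2, whereas 3.61% of all tested genes were called higher by that much in HepG2 and 1.42% in LM3. Of the 28 tested in both lines, 25 fell in both, against 36.0% of the 7349 genes tested in both. HMGCS1, IDI1, LSS, MSMO1, DHCR7, INSIG1 and SOAT1 were lower by at least 1 log2 unit in both, against 2.42%, and TM7SF2 and STARD4 brought the count to 9. Fewer than 3 siFASRL libraries reached a value of 1 for TM7SF2, STARD4 and ABCA1 in LM3 and for SOAT2 in HepG2. These genes entered the test only through their siNC libraries, where they are higher, so their results there are no support for a decrease. Without them 25 of 28 fell in HepG2, with a median of -0.85. In LM3, 23 of 25 then fell, 14 of them by at least 1 log2 unit, with a median of -1.08, and 22 of 25 fell in both lines. All the cholesterol genes, and the further lists below, were chosen with earlier results of these data known. Their counts beside the shares of all tested genes are therefore a description and no independent test. HMGCS1 and IDI1 are also genes that the study picked from these libraries, so their direction is not independent of that choice. In HepG2 all 3 siFASRL libraries lay below all 3 siNC libraries for 26 of the genes (25 without SOAT2), against 44.2% of tested genes, and above them for 3, against 45.4%. In LM3 they lay below for 27 (24 without the 3 genes named above), against 44.6%, and above for 1, against 35.6%. With 3 libraries against 3, the smallest p that an exact permutation test of a single gene can give is 0.1.

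**Figure D1:**
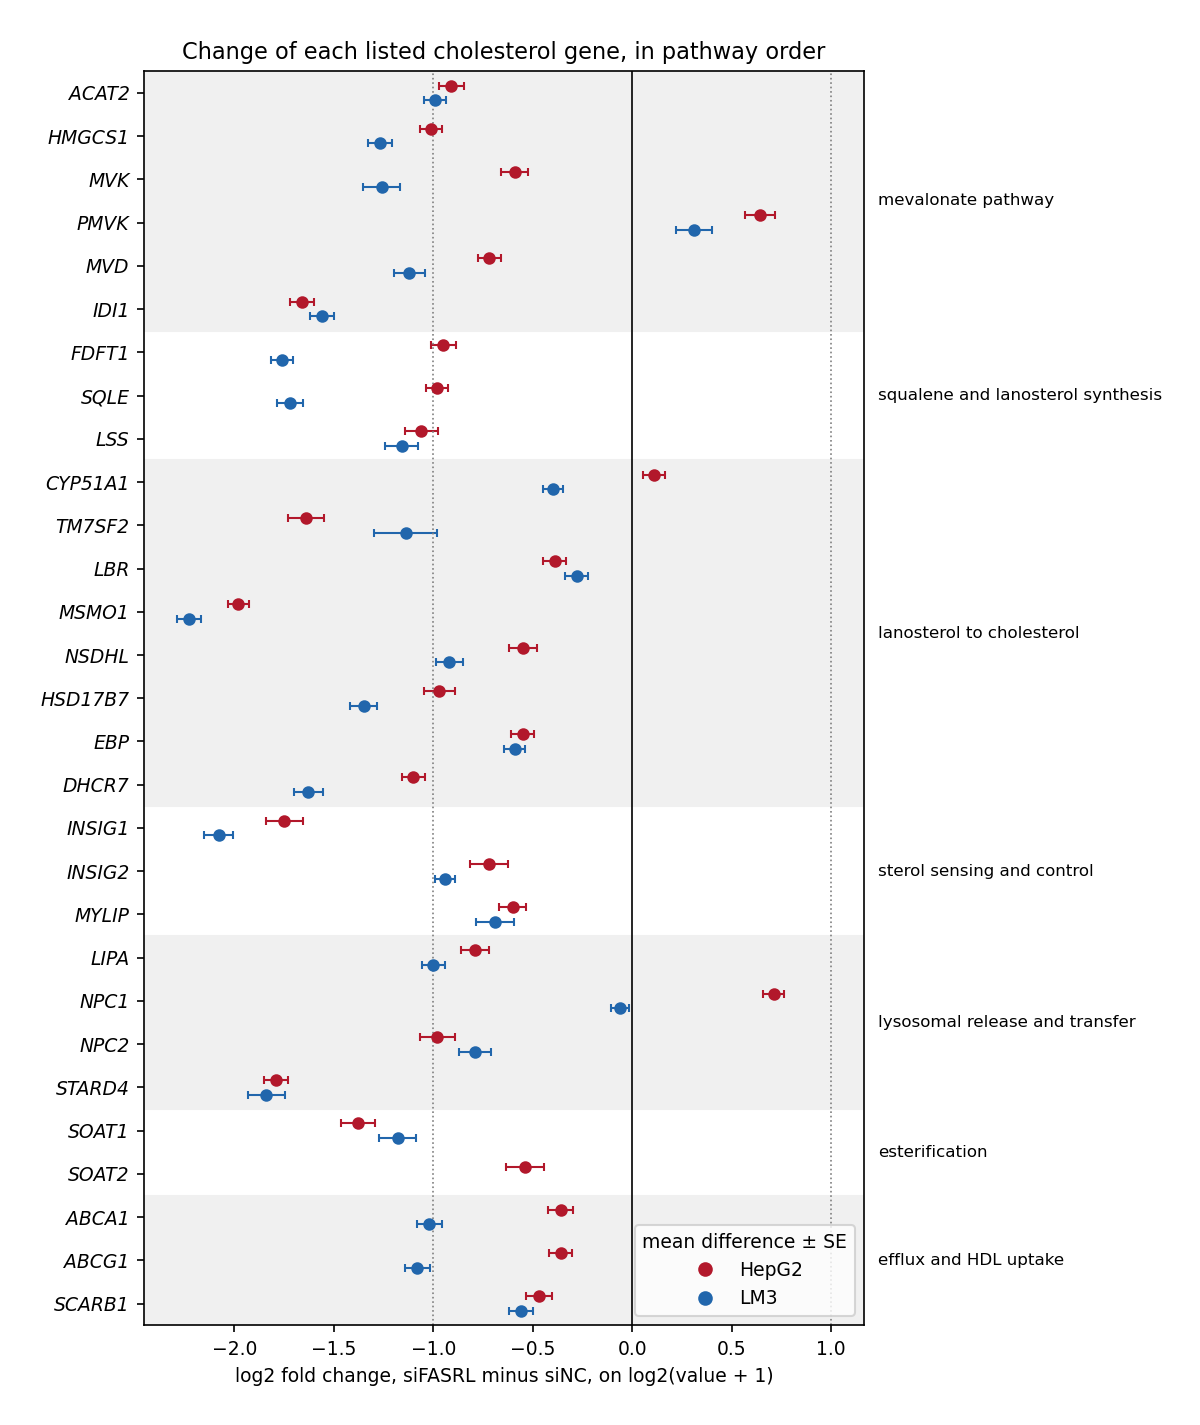
Log2 fold change on the log2(value + 1) scale (siFASRL minus siNC, horizontal axis, error bars ± SE) of each listed cholesterol gene in the order of the pathway, for HepG2 and LM3. Most points lie below 0 in both lines, MSMO1 lies lowest at -1.98 in HepG2 and -2.23 in LM3, and PMVK lies above 0 in both.

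Relative to the siNC mean, the cholesterol genes stood at a median of 53.5% in HepG2 siFASRL, with a range from 22.9% to 166%. In LM3 siFASRL the median was 41.9%, with a range from 8.96% to 125%. The median over the genes was 51.8%, 60.5% and 50.6% in the HepG2 siFASRL libraries and 43.2%, 40.9% and 42.5% in the LM3 siFASRL libraries. All siNC libraries lay between 98.2% and 101%. They were scaled to the mean of their own group, which holds them near it, so this range is no independent measure of spread. Every siFASRL median was lower, but its distance from siNC was not tested. These medians include SOAT2 in HepG2 and TM7SF2, STARD4 and ABCA1 in LM3, which were tested only through siNC. The 8.96% is that of STARD4, and percentages without these genes are not given. The 17 enzymes had a median log2 fold change of -0.95 in HepG2 and -1.16 in LM3, with 15 and 16 lower. The 12 genes of control, transport and storage had a median of -0.66 in HepG2, with 11 lower, and the 11 of them tested in LM3 had a median of -1.0, with 10 lower. Without the genes that entered only through siNC, 15 of 16 enzymes were lower in LM3, and of the other genes 10 of 11 were lower in HepG2 and 8 of 9 in LM3.

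The size of these changes depended on how the libraries were scaled. The median of all tested genes in LM3 was -0.06 as deposited, 0.05 after median-of-ratios scaling and -0.17 with the totals of the listed genes set equal, and the median of the cholesterol genes was -1.10, -1.0 and -1.19 beside it. Of all tested genes in LM3, 3254 fell and 2536 rose (56.2% of the called genes lower), whereas 3763 fell and 1854 rose (67.0%) with equal totals. The balance turned with median-of-ratios scaling, where 2755 fell and 3139 rose (46.7%), and with quantile normalization, where 2566 fell and 2831 rose (47.5%).

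Because the genes moved together, the sequences at their starts were compared. The RefSeq promoter table (GRCh38.p14) gave the 250 bases before and 50 bases after the transcription start for 31 promoters of 23 of the listed cholesterol genes. ACAT2, FDFT1, SQLE, SOAT2, ABCG1 and SCARB1 had no entry. The letters CCAAT, the core of the motif bound by NF-Y, were found on either strand in 19 of the 31 promoters (61.3%), against 34.6% of all 35116 promoters in the table and 34.4% of the promoters of the listed genes. Counted by gene, 17 of 23 (73.9%) held it, against 43.2% of the 7111 listed genes with an entry. The GC box GGGCGG, bound by SP1, was in 27 of 31 (87.1%), against 45.0% of all promoters and 64.2% of those of the listed genes. The E-box CACGTG was in 3 of 31 (9.68%), against 7.26% of all promoters and 8.91% of those of the listed genes. By gene, the GC box was in 21 of 23 (91.3%), against 76.0% of the listed genes with an entry. The E-box was in 3 of 23 (13.0%), against 12.2%. The sterol-element letters TCACNCCAC were in 0 of 31, against 1.13% of all promoters, which says only that these letters are not in the windows searched. All motifs were searched on both strands, and none contains another.

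The 17 genes with CCAAT ranged from -1.98 to -0.55 in HepG2 (median -1.01) and from -2.23 to -0.59 in LM3 (median -1.18). PMVK, CYP51A1, LBR, INSIG2, NPC1 and ABCA1 lacked it and ranged from -0.72 to 0.71 in HepG2 (median -0.13) and from -1.02 to 0.31 in LM3 (median -0.34). All 17 with CCAAT were called lower in both lines, against 43.8% (HepG2) and 44.1% (LM3) of tested listed genes with it. Of the 6 without it, 3 were lower in HepG2 (LBR, INSIG2 and ABCA1) and 4 in LM3 (CYP51A1 as well). Among tested listed genes without it the shares were 42.5% and 41.4%. The LM3 values and counts include TM7SF2 and STARD4 with CCAAT and ABCA1 without it. These genes were tested in LM3 only through siNC, so their direction there was fixed, and the -1.02 is that of ABCA1. Over all listed genes the medians with and without CCAAT were 0.11 and 0.12 in HepG2 and -0.07 and -0.03 in LM3. This split was noticed after the values were seen and was not tested, and a match of letters is a description of sequence, not a binding site. MSMO1 (plus strand, chr4:165327419-165327718), INSIG1 (plus strand, chr7:155297628-155297927) and STARD4 (minus strand, chr5:111512486-111512785) are shown first because they were among the most decreased genes. PMVK (minus strand, chr1:154936670-154936969), NPC1 (minus strand, chr18:23586457-23586756) and CYP51A1 (minus strand, chr7:92134428-92134727) follow because they did not fall in HepG2. Capitals mark CCAAT on either strand, and each sequence runs 5′ to 3′ on the strand of its gene.
MSMO1: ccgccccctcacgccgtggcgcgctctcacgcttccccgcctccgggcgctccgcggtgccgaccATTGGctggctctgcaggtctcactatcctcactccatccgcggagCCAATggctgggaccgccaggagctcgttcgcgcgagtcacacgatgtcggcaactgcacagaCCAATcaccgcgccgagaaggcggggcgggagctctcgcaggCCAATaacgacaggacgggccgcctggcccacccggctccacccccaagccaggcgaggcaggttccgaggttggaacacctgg
INSIG1: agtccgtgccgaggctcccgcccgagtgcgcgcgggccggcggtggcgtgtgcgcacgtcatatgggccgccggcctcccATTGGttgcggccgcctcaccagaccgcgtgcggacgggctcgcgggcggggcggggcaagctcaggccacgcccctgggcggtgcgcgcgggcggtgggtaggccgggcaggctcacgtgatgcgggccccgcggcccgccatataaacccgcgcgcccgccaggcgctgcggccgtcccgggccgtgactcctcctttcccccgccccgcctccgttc
STARD4: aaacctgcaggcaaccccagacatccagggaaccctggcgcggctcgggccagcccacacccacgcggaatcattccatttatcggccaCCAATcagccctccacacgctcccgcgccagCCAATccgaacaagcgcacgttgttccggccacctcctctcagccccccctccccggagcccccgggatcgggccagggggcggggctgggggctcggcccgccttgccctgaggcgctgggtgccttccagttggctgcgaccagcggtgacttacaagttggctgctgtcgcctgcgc
PMVK: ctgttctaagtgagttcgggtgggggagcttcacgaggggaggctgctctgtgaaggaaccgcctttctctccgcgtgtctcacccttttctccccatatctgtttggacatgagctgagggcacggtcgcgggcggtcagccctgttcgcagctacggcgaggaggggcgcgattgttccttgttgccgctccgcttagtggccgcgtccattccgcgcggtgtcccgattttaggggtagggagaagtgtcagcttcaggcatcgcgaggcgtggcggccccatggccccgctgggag
NPC1: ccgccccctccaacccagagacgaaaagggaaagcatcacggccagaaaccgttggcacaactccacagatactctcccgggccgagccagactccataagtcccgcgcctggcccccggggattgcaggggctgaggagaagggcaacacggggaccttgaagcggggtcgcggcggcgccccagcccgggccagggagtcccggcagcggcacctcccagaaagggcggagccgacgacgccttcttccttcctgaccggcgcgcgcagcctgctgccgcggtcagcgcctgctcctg
CYP51A1: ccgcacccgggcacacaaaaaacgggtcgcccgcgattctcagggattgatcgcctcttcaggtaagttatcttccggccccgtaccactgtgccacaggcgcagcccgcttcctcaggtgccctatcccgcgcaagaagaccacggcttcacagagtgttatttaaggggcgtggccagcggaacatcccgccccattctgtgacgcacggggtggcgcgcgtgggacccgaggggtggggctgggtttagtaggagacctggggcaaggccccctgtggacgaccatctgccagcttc

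The early enzymes, from acetyl-CoA to isopentenyl units, fell except for PMVK. ACAT2, the cytosolic thiolase that joins acetyl-CoA units, changed by -0.91 ± 0.062 (log2 fold change ± SE) in HepG2 and -0.99 ± 0.055 in LM3. Where changes are paired without naming the line, HepG2 comes first and LM3 second. HMGCS1, the synthase that makes HMG-CoA, had values of 15.16, 15.05 and 14.5 in siNC and 6.59, 7.01 and 7.15 in siFASRL of HepG2. In LM3 they were 57.36, 55.54 and 53.9 in siNC and 21.29, 22.04 and 24.05 in siFASRL. The siFASRL values lay below every siNC value, in LM3 from a higher starting level, and the log2 fold change was -1.01 ± 0.055 (SE, adjusted p = 2.76e-07) in HepG2 and -1.27 ± 0.060 (SE, adjusted p = 6.58e-07) in LM3. MVK, mevalonate kinase, stood at 7.01, 8.15 and 7.19 in siNC and 4.8, 4.73 and 4.32 in siFASRL of HepG2. Its LM3 values were 12.2, 15.29 and 15.73 in siNC and 5.05, 5.81 and 5.36 in siFASRL. MVK was higher in LM3 siNC than in HepG2 siNC, had siFASRL means of 4.62 in HepG2 and 5.41 in LM3, and changed by -0.59 ± 0.068 (SE, adjusted p = 2.84e-05) in HepG2 and -1.26 ± 0.094 (SE, adjusted p = 5.66e-06) in LM3.

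PMVK, phosphomevalonate kinase, which acts directly after MVK, moved the other way. Its values were 10.39, 11.69 and 12.04 in siNC and 16.75, 19.38 and 18.65 in siFASRL of HepG2. In LM3, PMVK reached 11.24, 14.41 and 14.18 in siNC and 16.88, 16.21 and 16.89 in siFASRL. Every siFASRL library was above every siNC library, by a wide margin in HepG2 and a narrow one in LM3, where siNC replicate 1 was the lowest. The log2 fold change of PMVK was 0.64 ± 0.075 (SE, adjusted p = 2.93e-05) in HepG2 and 0.31 ± 0.088 (SE, adjusted p = 0.0101) in LM3. With the totals of the listed genes set equal, the LM3 change was 0.20 and no longer passed (adjusted p = 0.0563, limma). The next enzyme, MVD, decarboxylates mevalonate diphosphate and had values of 11.9, 12.84 and 12.58 in siNC and 6.92, 7.53 and 7.08 in siFASRL of HepG2. MVD values in LM3 were 11.48, 14.3 and 13.85 in siNC and 5.71, 5.34 and 5.49 in siFASRL. The groups did not overlap, and MVD changed by -0.72 ± 0.058 (SE, adjusted p = 2.60e-06) in HepG2 and -1.12 ± 0.080 (SE, adjusted p = 4.44e-06) in LM3. IDI1, the isomerase that interconverts the isopentenyl units, was at 35.44, 32.34 and 34.64 in siNC and 10.35, 9.59 and 10.37 in siFASRL of HepG2. For LM3 the IDI1 values were 53.3, 51.15 and 46.9 in siNC and 15.85, 16.68 and 16.88 in siFASRL. After siFASRL, IDI1 stood at 29.6% of its siNC mean in HepG2 and 32.6% in LM3, with log2 fold changes of -1.66 ± 0.060 (SE, adjusted p = 3.72e-08) and -1.56 ± 0.061 (SE, adjusted p = 3.37e-07).

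The enzymes of the squalene and lanosterol steps fell in both lines. FDFT1, squalene synthase, commits isoprenoid units to sterols and had values of 60.32, 58.51 and 62.53 in siNC and 33.15, 29.98 and 29.63 in siFASRL of HepG2. FDFT1 in LM3 had values of 116.45, 114.84 and 111.18 in siNC and 31.21, 34.1 and 33.9 in siFASRL. Its siNC level was higher in LM3, the siFASRL means were 30.9 in HepG2 and 33.1 in LM3, and the log2 fold changes were -0.95 ± 0.062 (SE, adjusted p = 7.63e-07) in HepG2 and -1.76 ± 0.055 (SE, adjusted p = 1.95e-07) in LM3. SQLE, squalene epoxidase, stood at 23.49, 21.74 and 22.77 in siNC and 11.02, 11.15 and 10.82 in siFASRL of HepG2. SQLE stood at 45.91, 42.0 and 42.16 in siNC and 11.7, 12.4 and 13.4 in siFASRL of LM3. The same order of levels was seen as for FDFT1, and SQLE changed by -0.98 ± 0.055 (SE, adjusted p = 2.95e-07) and -1.72 ± 0.065 (SE, adjusted p = 2.89e-07) in HepG2 and LM3. LSS closes epoxidized squalene to lanosterol and was at 14.42, 18.01 and 15.61 in siNC and 6.71, 6.96 and 7.75 in siFASRL of HepG2. LSS was at 20.07, 24.21 and 25.19 in siNC and 10.01, 9.38 and 9.88 in siFASRL of LM3. Its siNC replicates were more spread than its siFASRL replicates, without overlap, and the changes were -1.06 ± 0.085 (SE, adjusted p = 2.43e-06) in HepG2 and -1.16 ± 0.083 (SE, adjusted p = 4.51e-06) in LM3.

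Past lanosterol the changes were less even. CYP51A1, the lanosterol demethylase, had values of 23.42, 22.79 and 24.27 in siNC and 24.69, 25.35 and 26.33 in siFASRL of HepG2. In LM3, CYP51A1 had values of 56.83, 56.38 and 54.32 in siNC and 40.59, 42.77 and 43.26 in siFASRL. The HepG2 siFASRL values lay just above the siNC values, with a log2 difference of 0.11 ± 0.055 (SE, adjusted p = 0.0824) that passed only in the fit of all 12 libraries together (adjusted p = 0.0414, limma), and the LM3 values fell by 0.40 ± 0.051 (SE, adjusted p = 1.27e-04) on the log2 scale. TM7SF2 and LBR are both sterol reductases of the step that follows. TM7SF2 values were 9.92, 12.45 and 11.67 in siNC and 3.0, 3.3 and 2.58 in siFASRL of HepG2. They were 1.89, 3.06 and 3.16 in siNC and 1.0, 0.57 and 0.44 in siFASRL of LM3, so that the LM3 level was low throughout. TM7SF2 changed by -1.64 ± 0.092 (SE, adjusted p = 3.07e-07) in HepG2. The LM3 change of -1.14 ± 0.160 is a description without a p-value, since only 1 siFASRL library there reached 1, and the added 1 understates it. LBR, which also binds the nuclear lamina, changed by -0.39 ± 0.057 and -0.28 ± 0.059, the smallest decrease among the enzymes that fell in both lines.

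MSMO1, the methylsterol oxidase that starts the C4 demethylation of the ring (gene ID 6307, chr4:165327669-165343164), had the largest decrease of the cholesterol genes in each line on the log2(value + 1) scale. MSMO1 values were 31.77, 30.06 and 30.74 in siNC and 7.04, 7.0 and 7.16 in siFASRL of HepG2. In LM3, MSMO1 values were 36.13, 34.84 and 33.91 in siNC and 6.29, 7.2 and 6.51 in siFASRL. Both siFASRL groups were tight and near the same level, and the log2 fold change was -1.98 ± 0.053 (SE, adjusted p = 8.09e-09) in HepG2 and -2.23 ± 0.060 (SE, adjusted p = 1.57e-07) in LM3. Ordered from the most decreased, MSMO1 was 38 of 8144 tested genes in HepG2 and 7 of 7483 in LM3. NSDHL, the dehydrogenase of the same demethylation, changed by -0.55 ± 0.071 and -0.92 ± 0.067. HSD17B7, the ketoreductase that completes it, was at 16.05, 15.99 and 14.43 in siNC and 8.35, 6.96 and 6.95 in siFASRL of HepG2. It was at 23.5, 24.04 and 25.59 in siNC and 8.65, 9.85 and 8.44 in siFASRL of LM3. The siFASRL values lay apart from the siNC values, with changes of -0.97 ± 0.078 (SE, adjusted p = 2.49e-06) and -1.35 ± 0.067 (SE, adjusted p = 8.59e-07), although pseudogene copies of HSD17B7 make the assignment of its reads uncertain.

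EBP, the sterol isomerase, had siNC means of 64.1 in HepG2 and 169 in LM3 and changed by -0.55 ± 0.058 in HepG2 and -0.59 ± 0.053 in LM3. DHCR7, which reduces dehydrocholesterol to cholesterol at the end of synthesis, had values of 31.51, 32.16 and 32.33 in siNC and 15.18, 14.07 and 13.9 in siFASRL of HepG2. DHCR7 values in LM3 were 37.22, 43.65 and 43.27 in siNC and 11.87, 13.06 and 12.96 in siFASRL. The siFASRL replicates lay close together in both lines and far below siNC, and DHCR7 changed by -1.10 ± 0.056 (SE, adjusted p = 1.86e-07) and -1.63 ± 0.073 (SE, adjusted p = 5.34e-07).

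**Figure D2:**
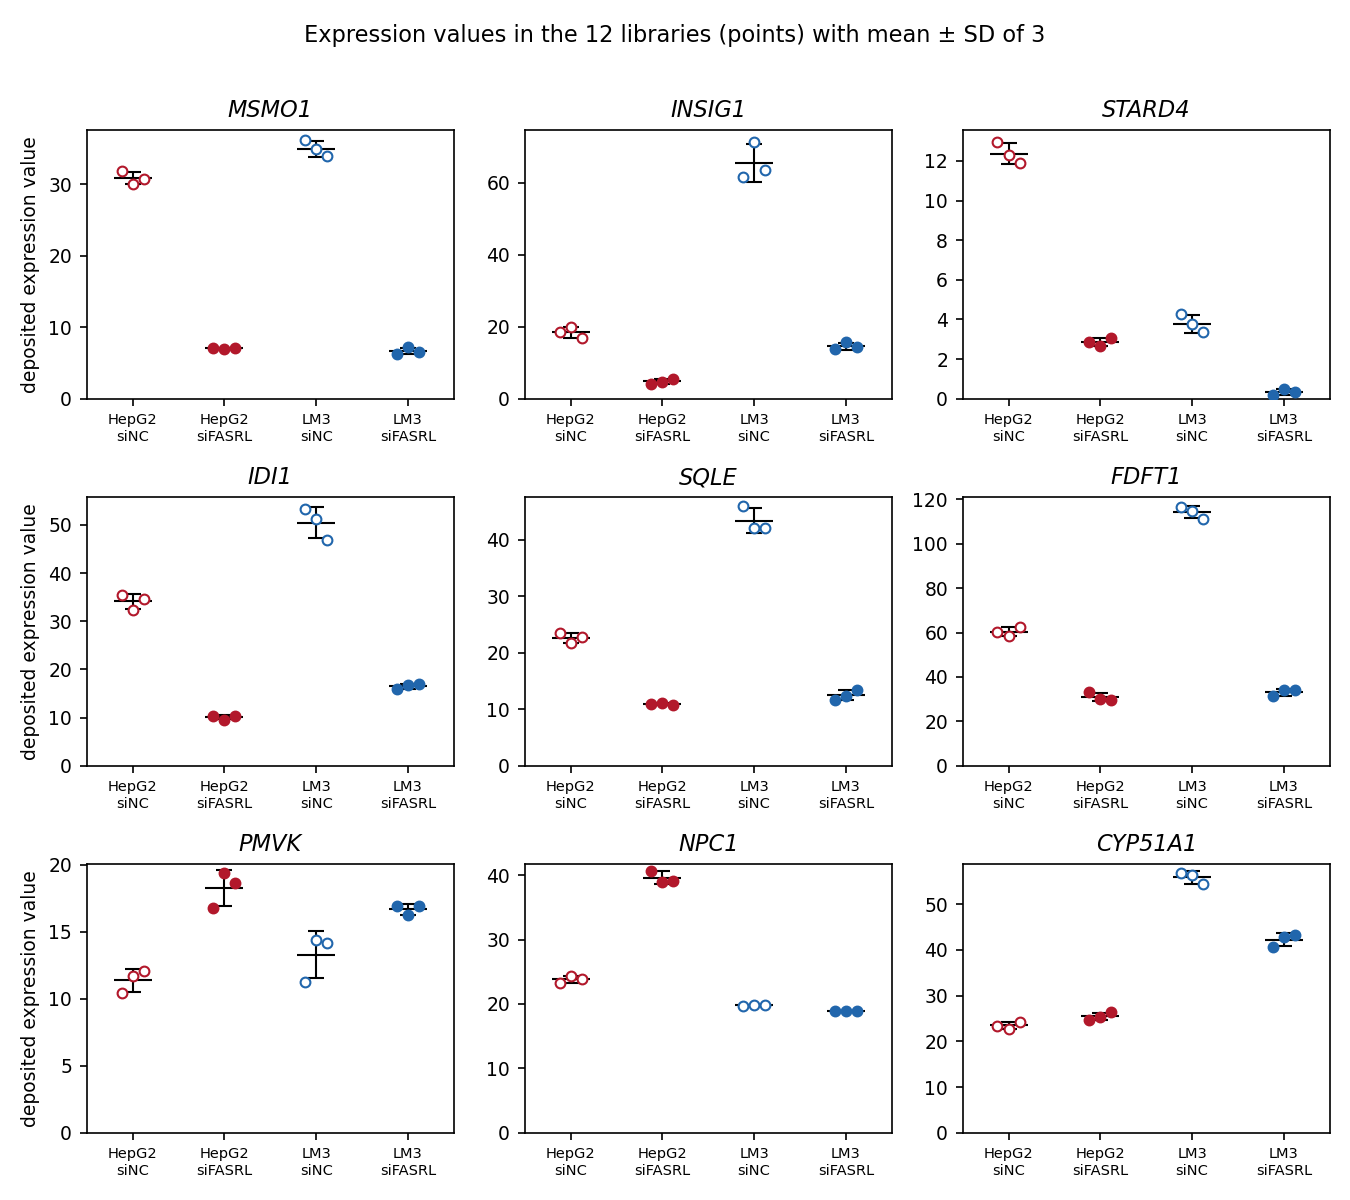
Deposited expression value (vertical axis, from 0) in each of the 12 libraries for 9 cholesterol genes, with each library as a point (siNC open, siFASRL filled) and the mean ± SD of 3 replicates as lines. The siFASRL points of MSMO1, INSIG1, STARD4, IDI1, SQLE and FDFT1 lie below their siNC points in both lines, those of PMVK lie above, and NPC1 and CYP51A1 differ between the lines.

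The control genes fell in both lines. INSIG1, which holds the SREBP complex in the endoplasmic reticulum and is itself an SREBP target, had values of 18.54, 19.89 and 16.84 in siNC and 4.13, 4.76 and 5.52 in siFASRL of HepG2. INSIG1 in LM3 had values of 61.48, 71.42 and 63.43 in siNC and 13.91, 15.75 and 14.29 in siFASRL. Levels were higher in LM3 in both groups, the groups did not overlap, and the changes were -1.75 ± 0.093 (SE, adjusted p = 2.26e-07) and -2.08 ± 0.073 (SE, adjusted p = 2.34e-07). INSIG2, the related protein, changed by -0.72 ± 0.094 and -0.94 ± 0.051. MYLIP, a ubiquitin ligase that limits lipoprotein uptake, changed by -0.60 ± 0.068 and -0.69 ± 0.094.

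The uptake and lysosomal genes divided. SCARB1, the receptor for high-density lipoprotein, had siNC means of 143 in HepG2 and 110 in LM3 and changed by -0.47 ± 0.066 and -0.56 ± 0.059. LIPA, the lysosomal acid lipase that frees cholesterol from its esters, was at 30.84, 31.78 and 33.09 in siNC and 16.52, 19.53 and 18.26 in siFASRL of HepG2. LIPA was at 29.71, 30.99 and 29.88 in siNC and 14.29, 13.91 and 15.53 in siFASRL of LM3. Its siFASRL values were lower without overlap, with changes of -0.79 ± 0.069 (SE, adjusted p = 4.41e-06) in HepG2 and -1.0 ± 0.056 (SE, adjusted p = 1.44e-06) in LM3, the latter right at the threshold of 1 log2 unit. NPC2, which hands cholesterol to NPC1 inside the lysosome, changed by -0.98 ± 0.087 and -0.79 ± 0.082. NPC1, the membrane protein that carries cholesterol out of the lysosome, had values of 23.26, 24.36 and 23.86 in siNC and 40.71, 38.93 and 39.08 in siFASRL of HepG2. For LM3 the NPC1 values were 19.61, 19.9 and 19.78 in siNC and 18.9, 18.96 and 18.95 in siFASRL. NPC1 rose in HepG2, by 0.71 ± 0.053 (SE, adjusted p = 1.69e-06), while the LM3 values differed by -0.06 ± 0.045 (SE, adjusted p = 0.262). The LM3 difference of NPC1 was 0.05 after median-of-ratios scaling and -0.17 (adjusted p = 0.00802, limma) with equal totals, so its sign there depends on the scaling.

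STARD4, a carrier of cholesterol between membranes in the cytosol, had values of 12.95, 12.29 and 11.88 in siNC and 2.86, 2.66 and 3.05 in siFASRL of HepG2. STARD4 in LM3 had values of 4.26, 3.76 and 3.36 in siNC and 0.21, 0.49 and 0.32 in siFASRL. STARD4 stood at 23.1% of siNC in HepG2 and 8.96% in LM3. The log2 fold change was -1.79 ± 0.061 (SE, adjusted p = 2.80e-08) in HepG2. That of -1.84 in LM3 is given as a description without a p-value, since its direction was fixed by the filter on low values, and the added 1 understates it. SOAT1, which esterifies cholesterol for storage, was at 61.06, 51.49 and 64.15 in siNC and 22.99, 20.65 and 22.16 in siFASRL of HepG2. SOAT1 was at 92.31, 72.54 and 72.07 in siNC and 35.76, 33.27 and 33.42 in siFASRL of LM3. The siNC replicates were uneven in both lines, yet the lowest of them lay above every siFASRL value, and SOAT1 changed by -1.38 ± 0.085 (SE, adjusted p = 5.00e-07) and -1.18 ± 0.095 (SE, adjusted p = 8.63e-06). SOAT2, the other esterifying enzyme, was low in HepG2, with siNC values of 2.08, 2.07 and 1.7 and siFASRL values of 0.99, 1.33 and 0.81. Its difference of -0.54 ± 0.095 there is likewise given without a p-value.

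The efflux transporters ABCA1 and ABCG1 fell in HepG2, and ABCG1 also fell in LM3. ABCA1, which loads cholesterol onto apolipoproteins, had values of 6.86, 6.95 and 6.02 in siNC and 5.01, 4.79 and 4.94 in siFASRL of HepG2. ABCA1 values in LM3 were 3.51, 3.14 and 2.94 in siNC and 0.99, 1.13 and 1.06 in siFASRL. The decrease was small in HepG2, at -0.36 ± 0.064 (SE, adjusted p = 4.30e-04). In LM3 the difference was -1.02 ± 0.063, and the groups did not overlap in either line. The LM3 change is given without a p-value, because 1 siFASRL library was just below 1. ABCG1, which exports cholesterol to high-density lipoprotein, was at 9.18, 9.84 and 8.75 in siNC and 6.98, 6.82 and 7.18 in siFASRL of HepG2. ABCG1 was at 6.22, 7.35 and 6.7 in siNC and 2.65, 2.79 and 2.57 in siFASRL of LM3. It followed ABCA1, with changes of -0.36 ± 0.059 (SE, adjusted p = 2.90e-04) and -1.08 ± 0.064 (SE, adjusted p = 1.92e-06).

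The lines were then compared directly. The LM3 effect minus the HepG2 effect, tested as an interaction in limma over all 12 libraries, passed for 16 of the 29 cholesterol genes, against 46.7% of all 8285 genes in that fit, a share not far above that of all genes. The count was 13 with median-of-ratios scaling and 12 with quantile normalization. The difference was negative for 15 of the 16, against 2256 of the 3868 genes called over the whole list. With 1 added to the values, the most negative differences were FDFT1 (-0.81 ± 0.079 SE, adjusted p = 3.23e-06), NPC1 (-0.77 ± 0.059 SE, adjusted p = 3.87e-07), SQLE (-0.74 ± 0.081 SE, adjusted p = 9.21e-06), ABCG1 (-0.72 ± 0.085 SE, adjusted p = 1.81e-05), MVK (-0.67 ± 0.123 SE, adjusted p = 6.29e-04) and ABCA1 (-0.66 ± 0.088 SE, adjusted p = 4.93e-05). For FDFT1, SQLE, MVK and ABCG1 this was a decrease that was larger in LM3, and for NPC1 a rise in HepG2 beside an LM3 difference that did not pass. For ABCA1 the LM3 change, given above without a p-value, was the more negative. This order depended on the pseudocount, and with 0.1 the differences of STARD4 (-1.11), ABCA1 (-1.09) and ABCG1 (-0.91) were more negative than that of FDFT1 (-0.82). The 1 positive difference, SOAT2 (0.54 ± 0.113 SE, adjusted p = 0.00172), came from a gene at or near 0 in both LM3 groups that entered this fit only through HepG2, and without it 15 of 28 passed. PMVK (-0.32, adjusted p = 0.0449) and INSIG1 (-0.34, adjusted p = 0.0452) passed narrowly. With single libraries left out, PMVK passed only without HepG2 siFASRL 1, HepG2 siNC 3 or LM3 siNC 1 (adjusted p from 0.00232 to 0.112 over all 12). INSIG1 passed only without HepG2 siFASRL 1, HepG2 siNC 2, LM3 siFASRL 2 or LM3 siNC 1 (0.0128 to 0.113). The HepG2 and LM3 effects correlated across the 28 shared cholesterol genes (Pearson's r 0.861, Spearman's rho 0.82, and 0.882 and 0.835 over the 25 left without TM7SF2, STARD4 and ABCA1) and across all 7349 shared genes (0.794 and 0.797). These are correlations across genes, which are not independent replicates.

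**Figure D3:**
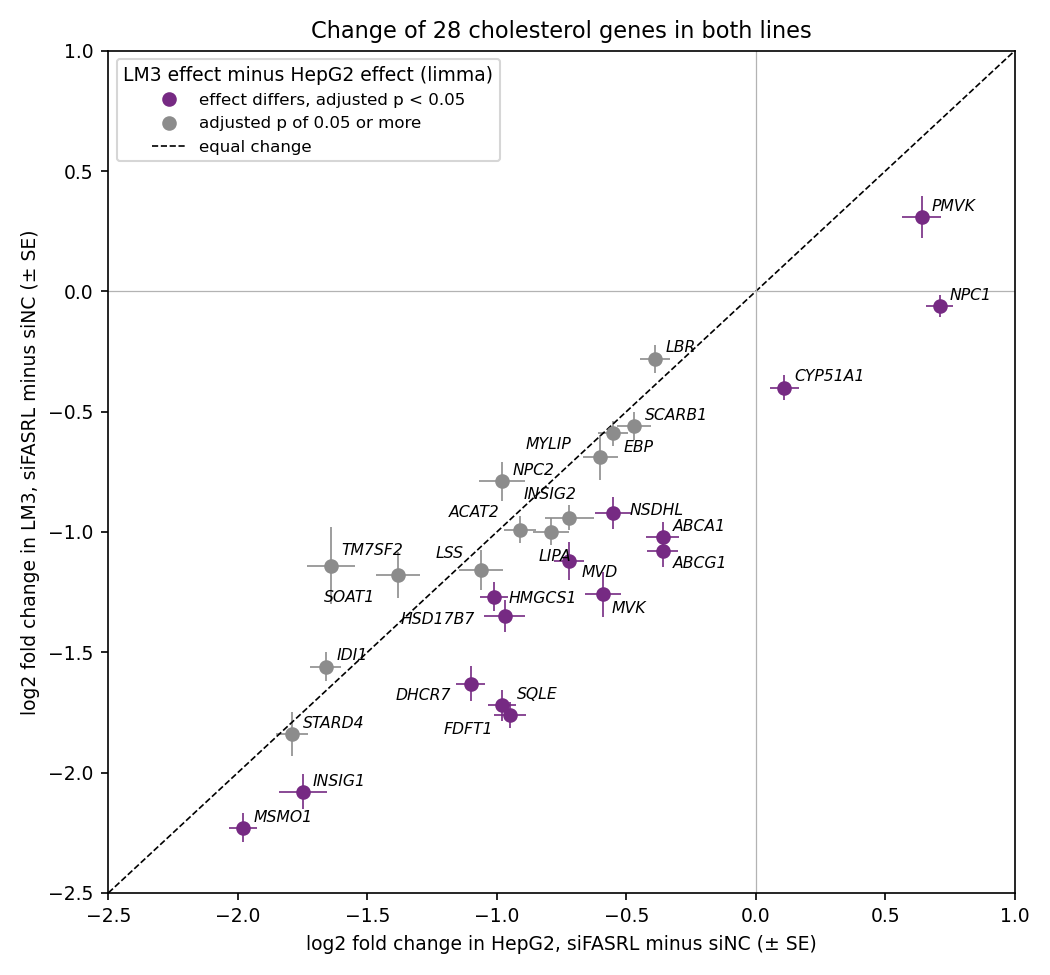
Log2 fold change (siFASRL minus siNC) in LM3 (vertical axis) against that in HepG2 (horizontal axis) for the 28 cholesterol genes tested in both, with error bars of ± SE and color for the call of the difference between lines. FDFT1, SQLE, MVK, ABCA1, ABCG1 and NPC1 lie well below the line of equal change.

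The siNC levels themselves differed between the lines for 25 of the 29 genes, which is near the 83.6% of all 8285 genes. Of these, 16 were higher in LM3 and 9 lower, where 3442 of the 8285 genes were higher and 3488 lower. Among the enzymes 14 were higher in LM3 and 1, TM7SF2, was lower, whereas among the genes of control, transport and storage 2 (INSIG1 and SOAT1) were higher and 8 lower. SOAT2 is counted among the lower genes, but it entered this comparison only through its HepG2 libraries and had to be lower in LM3. Without it, 16 of 28 were higher and 8 lower. HMGCS1 was higher in LM3 siNC by 1.83 log2 units, INSIG1 by 1.77, EBP by 1.39 and CYP51A1 by 1.21. TM7SF2 differed by -1.75, STARD4 by -1.48 and MYLIP by -1.0. Cell line and culture cannot be told apart in these differences.

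**Figure D4:**
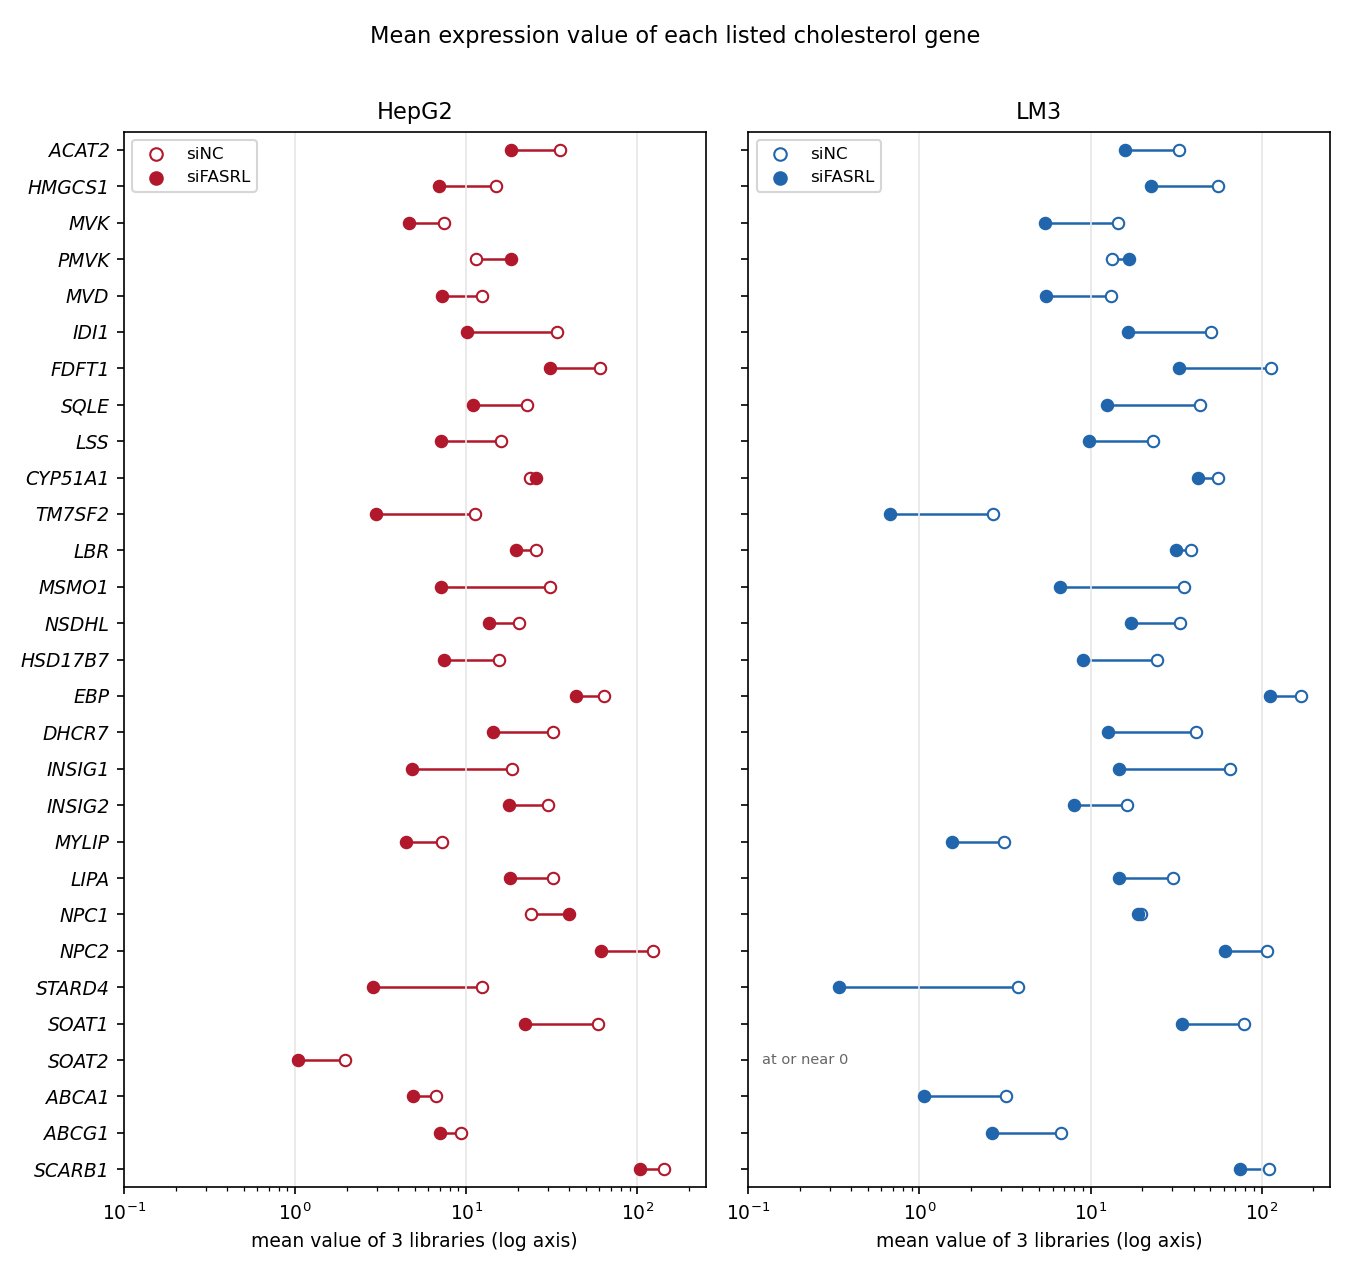
Mean expression value of 3 libraries (horizontal axis, log-scaled) of each listed cholesterol gene in siNC (open points) and siFASRL (filled points), joined by a line, with HepG2 in the left panel and LM3 in the right. In LM3 the STARD4 mean moves from 3.79 to 0.34 and SOAT2 is at or near 0, and the PMVK mean moves up in both lines.

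Genes around the set were counted in lists of their own. For comparison, 44.3% of all tested genes were lower and 44.8% higher in HepG2, and 43.5% lower and 33.9% higher in LM3. Of 16 genes for processing of SREBP and sterol-regulated degradation, 11 were listed, with 7 lower and 4 higher in HepG2 and 7 lower and 2 higher in LM3. SREBF1, which encodes the SREBP form that drives mainly fatty acid synthesis, had values of 51.69, 57.16 and 50.32 in siNC and 22.25, 21.65 and 22.04 in siFASRL of HepG2. SREBF1 in LM3 had values of 66.24, 73.14 and 71.9 in siNC and 22.64, 21.5 and 20.5 in siFASRL. Its groups did not overlap, and the log2 fold change was -1.23 ± 0.062 (SE, adjusted p = 1.77e-07) in HepG2 and -1.66 ± 0.061 (SE, adjusted p = 2.52e-07) in LM3. SREBF2, which encodes the form that drives mainly cholesterol genes, was at 48.43, 46.78 and 48.21 in siNC and 21.69, 18.69 and 18.08 in siFASRL of HepG2. SREBF2 was at 51.28, 50.34 and 48.26 in siNC and 23.3, 24.86 and 22.51 in siFASRL of LM3. It too fell without overlap, with changes of -1.26 ± 0.072 (SE, adjusted p = 3.35e-07) and -1.05 ± 0.056 (SE, adjusted p = 1.17e-06). SCAP was not listed.

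Of 16 fatty acid genes under SREBP control, 14 were listed, with 12 lower and 2 higher in HepG2 and 12 lower and 1 higher in LM3. SCD, the stearoyl-CoA desaturase, changed by -2.04 ± 0.069 in HepG2 and -1.76 ± 0.063 in LM3, and FADS1, another desaturase, by -0.99 ± 0.056 and -1.57 ± 0.057. The isoprenoid branch, which leaves the pathway before squalene, was mixed, with 12 of 20 genes listed, 5 lower and 6 higher in HepG2 and 3 lower and 6 higher in LM3. Its HepG2 counts lay near the shares of all tested genes, and in LM3 fewer of its genes were lower and more were higher than those shares. SRD5A3, a reductase of dolichol synthesis, changed by -0.64 ± 0.060 and -0.54 ± 0.086, and ZMPSTE24, a protease that matures prenylated lamin, by -0.82 ± 0.065 and -0.50 ± 0.060. The call of SRD5A3 in LM3 was lost after quantile normalization (adjusted p = 0.191, limma). Of 23 other sterol carriers and hydrolases, 18 were listed, with 8 of 17 tested lower and 5 higher in HepG2 and 10 of 14 lower and 2 higher in LM3. ABCG8 was tested in HepG2 only through its siNC libraries and had to be lower, and without it 7 of 16 were lower there. The lower share was near that of all tested genes in HepG2 and above it in LM3. SCP2, a sterol carrier, changed by -0.36 ± 0.083 and -0.68 ± 0.057. Of 6 genes of sterol oxidation only CYP27A1, a mitochondrial sterol hydroxylase, was listed. It fell by 1.81 on the log2 scale in HepG2 and was near 0 in LM3.

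Hepatocyte and fibroblast markers fell where they could be tested, whereas CD68 did not. Of 13 hepatocyte markers 11 were listed, and all 11 fell in HepG2, 7 of them by at least 1 log2 unit, with a median of -1.25. Their summed value was 4046, 3938 and 3675 in the HepG2 siNC libraries and 1792, 1702 and 1747 in the HepG2 siFASRL libraries, with SERPINA1 the highest. In LM3 the sum was 15.32, 18.44 and 17.57 in siNC and 7.72, 8.1 and 6.81 in siFASRL, most of it HNF4A, the only hepatocyte marker that could be tested there. ALB, the albumin gene, had a mean of 815 in HepG2 siNC and 0.36 in LM3 siNC, and between 0 and 5 of the 11 hepatocyte markers were at 0 in an LM3 library. HNF4A changed by -1.05 ± 0.073 in HepG2 and -1.0 ± 0.074 in LM3.

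Of 7 fibroblast markers 5 were listed, with 4 of 4 tested lower in HepG2 and 2 of 2 in LM3. Their sum was 70.63, 70.91 and 72.23 in HepG2 siNC (COL3A1 the highest) and 35.35, 32.32 and 33.3 in HepG2 siFASRL (COL1A1 the highest). In LM3 it was 15.13, 14.32 and 13.17 in siNC and 4.69, 5.86 and 5.25 in siFASRL (COL1A1 the highest, with up to 3 of 5 at 0). COL1A1 changed by -0.34 ± 0.065 and -1.45 ± 0.079, and PDGFRB by -0.54 ± 0.069 and -0.68 ± 0.097. Of 7 leukocyte and endothelial markers 2 were listed, nearly all of whose sum was CD68. CD68 had values of 42.13, 36.71 and 44.48 in siNC and 54.27, 41.43 and 38.93 in siFASRL of HepG2. CD68 in LM3 had values of 16.83, 13.39 and 14.46 in siNC and 17.66, 17.29 and 17.61 in siFASRL. The groups overlapped in HepG2 and not in LM3, with differences of 0.11 ± 0.119 (SE, adjusted p = 0.374) and 0.23 ± 0.078 (SE, adjusted p = 0.0255). The LM3 call of CD68 held only without siNC replicate 1 and was lost without each of the other 5 libraries (adjusted p from 0.0555 to 0.0861, limma). The part of these markers in the changes of the cholesterol genes was not tested.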

How the data were processed

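RNA-seq of 12 libraries was analysed, with groups and replicates from the sample labels. The deposited signal values are expression values that the authors normalized with RSEM (1.2.12) after SOAPnuke (1.5.2), HISAT2 (2.0.4) and Bowtie2 (2.2.5), with 2 decimals and no statement of FPKM or TPM. Strandedness is not stated, so the reads of overlapping genes cannot be separated by strand. The submitters' processing notes name hg19, whereas the tables carry GRCh38 chromosome accessions. Coordinates come from RefSeq on GRCh38.p14. Symbols of 17 genes that had turned into dates were restored by gene identifier. The table of HepG2 siFASRL replicate 3 held 6 further columns identical to the LM3 values, which were not used again.

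limma (3.58.1, R 4.3.3) was run on log2(value + 1) in each line separately, keeping genes that reached a value of 1 in 3 or more of the libraries fitted. The added 1 understates changes of low genes. Differences between lines and between siNC levels came from a joint fit of the 12 libraries. The fits were checked on simulated data with independent noise and few changed genes, unlike the many genes called here. That check cannot show how the fits behave when most genes change or when replicates are technical. Since the values are not counts, no count test was used. Depth is unknown, and precision comes from the spread of 3 replicates.

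The members and lists were chosen with earlier results of these data known. Library values were given for genes past 1 log2 unit in either line or higher in both. From each further list, the 2 genes with the largest mean absolute change were named, with SREBF1 and SREBF2, except that 1 gene is not reported here. Library values of CYP51A1, NPC1 and SOAT2, and ALB and CYP27A1, were added after their values were seen. Alternatives were the pseudocount, the filter, the scaling, the variance model, a joint fit, the replicate block and leaving out each library. Tables were handled with pandas (2.3.3) in Python (3.11.15) and figures with matplotlib (3.10.9).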

Additional observations from a re-analysis of the deposited data

Results flagged for a closer look

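The siFASRL effect differed between the lines by limma's interaction test for 16 of 29 cholesterol genes, against 46.7% of all 8285 genes in that fit, a share not far above that of all genes. The count was 13 with median-of-ratios scaling and 12 with quantile normalization. The LM3 effect minus the HepG2 effect was -0.27 for HMGCS1, -0.67 for MVK, -0.32 for PMVK, -0.40 for MVD, -0.81 for FDFT1 and -0.74 for SQLE. It was -0.51 for CYP51A1, -0.25 for MSMO1, -0.37 for NSDHL, -0.38 for HSD17B7 and -0.53 for DHCR7. Among the genes of control, transport and storage it was -0.34 for INSIG1, -0.77 for NPC1, 0.54 for SOAT2, -0.66 for ABCA1 and -0.72 for ABCG1. SOAT2 was at or near 0 in LM3 and entered the fit only through HepG2, and without it 15 of 28 genes passed.

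For 9 of these genes the difference passed under every alternative run (MVK, FDFT1, SQLE, CYP51A1, NSDHL, DHCR7, NPC1, ABCA1 and ABCG1). The size was less stable for ABCA1, from -1.09 with a pseudocount of 0.1 to -0.31 after quantile normalization, and for ABCG1, from -0.91 to -0.43 in the same 2 alternatives. PMVK and INSIG1 lost the call with pseudocounts of 0.1 and 0.5, with median-of-ratios scaling and with quantile normalization. The difference of PMVK in these was -0.34, -0.34, -0.26 and -0.29, and that of INSIG1 was -0.23, -0.28, -0.27 and -0.26. MSMO1 lost it after median-of-ratios scaling (-0.19, adjusted p = 0.0559) and quantile normalization (-0.03, adjusted p = 0.787), and HMGCS1 with a pseudocount of 0.1 (-0.21, adjusted p = 0.0563). MVD (-0.22, adjusted p = 0.0779), HSD17B7 (-0.28, adjusted p = 0.0532) and SOAT2 (0.24, adjusted p = 0.142) lost it after quantile normalization. STARD4, which did not pass, differed by -1.11 with a pseudocount of 0.1, by -0.42 with 0.5 and by 0.50 after quantile normalization, all past the threshold, the last in the opposite direction. TM7SF2 gained a call after quantile normalization (1.0, adjusted p = 0.00107) and without HepG2 siNC 1 (0.58, adjusted p = 0.049), LM3 siFASRL 3 (0.59, adjusted p = 0.0409) or LM3 siNC 3 (0.59, adjusted p = 0.0421). Its difference was 0.50 in the main fit (adjusted p = 0.0658) and only 0.01 with a pseudocount of 0.1 (adjusted p = 0.987). LIPA gained a call with equal totals (-0.27, adjusted p = 0.0177), with the replicate block (-0.22, adjusted p = 0.0453) and without HepG2 siFASRL 1 (-0.28, adjusted p = 0.0142) or LM3 siFASRL 3 (-0.26, adjusted p = 0.0372). With 1 library left out, calls were also gained by INSIG2 without HepG2 siFASRL 1 (-0.31, adjusted p = 0.0179), NPC2 without HepG2 siNC 2 (0.29, adjusted p = 0.0495) and SOAT1 without LM3 siNC 1 (0.32, adjusted p = 0.0297). All p-values are from limma.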

How the results depend on the processing

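The counts of cholesterol genes stayed within 1.5 times their value in nearly all alternatives. In HepG2, 25 to 26 genes fell, 2 to 3 rose and 8 to 13 passed 1 log2 unit. In LM3, 22 to 27 fell and 12 to 20 passed 1 log2 unit, and the count that rose was 0 with equal totals of the listed genes. The number of genes that could be tested was not the same in every alternative. Genes tested in the main fit only through siNC (SOAT2 in HepG2, and TM7SF2, STARD4 and ABCA1 in LM3) were not left out of these counts. Effects differed between lines for 12 to 18 genes and siNC levels for 24 to 27. The median log2 fold change in LM3 was -1.24 with a pseudocount of 0.1, -1.19 with 0.5, -1.0 with median-of-ratios scaling, -0.96 with quantile normalization and -1.19 with equal totals. Leaving out 1 LM3 library at a time gave -1.11 to -1.03. STARD4 could not be tested in LM3 without any 1 of the siNC libraries.

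The LM3 difference of NPC1 was 0.05 with median-of-ratios scaling. The HepG2 difference of CD68 was -0.01 with quantile normalization and -0.03 to 0.21 with 1 library left out, the lowest without siFASRL replicate 1. The HepG2 difference of SOAT2, which was tested only through siNC and is no support for a decrease, was -0.20 with quantile normalization. CD68 in LM3 lost its call with equal totals (0.11, adjusted p = 0.233, limma) and in the joint fit (adjusted p = 0.0871, limma). Of 1620 alternative values, which cover the fold changes of the named genes and the 16 called differences between lines, 1574 kept direction and side of the threshold, 41 lost the call, 2 gained it and 3 changed sign. Differences between lines that were not called are not in this count, and some gained a call in an alternative (LIPA, INSIG2, NPC2, STARD4, SOAT1 and TM7SF2). The cause of these changes was not tested.

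Same-numbered replicates did not consistently deviate together (correlations of 0.319, 0.371 and -0.2 in HepG2 and -0.0801, 0.118 and -0.175 in LM3), so the replicate numbers were not taken as pairs. With the replicate block, 26 genes fell, 2 rose and 9 passed 1 log2 unit in HepG2, 26 fell, 1 rose and 17 passed in LM3, effects differed for 17 and siNC levels for 26. Not every library correlated best with its own number. Depth is unknown, so changes of genes near 0, such as SOAT2 in LM3, cannot be resolved.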
